A study of Mus musculus with 3 samples.

Results

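The 10 genes described here are feedback regulators and transcriptional outputs of the ERK pathway, measured in single cells of mouse bone marrow. They were taken by name from the 32285 genes of the deposited count tables, where each of the 10 symbols matched 1 row: Spred1, Spred2, Spry1, Spry2, Dusp4, Dusp5, Dusp6, Etv5, Ier3 and Emp1. The rule used gene names only, though the genes were chosen with earlier results of these data known. Live marrow cells negative for CD3, CD11b, Gr1, B220 and Ter119 had been sorted and run as droplet libraries that read the 3' ends of mRNAs, with 1 library per genotype. The 3 genotypes were Lztr1fl/fl;Mx1Cre+ (called Lztr1 knockout below), Rit1M90I/+;Mx1Cre+ (Rit1-M90I) and Rit1M90I/+Mx1Cre- (Cre-negative control). All mice received 3 doses of polyinosinic:polycytidylic acid (pIpC) at 12 mg/kg from 8 weeks of age, and marrow was collected 4 weeks after injection. Mx1Cre is switched on by interferon, which pIpC induces, in blood cells and in other tissues. The control carried the Rit1M90I allele without Cre and received pIpC too, and its sample title also calls it wildtype. The labels do not say how many animals entered a library. Against this control, the presence of Cre and the genotype cannot be told apart.

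ERK is the last kinase of the RAS, RAF and MEK cascade, and cells limit its activity through genes that the cascade itself switches on. SPRED proteins bring neurofibromin to RAS at the membrane, Sprouty proteins dampen signalling from receptor tyrosine kinases, and dual-specificity phosphatases remove phosphate from ERK. Etv5 encodes an ETS transcription factor of the PEA3 group, Ier3 an immediate early protein that is an ERK substrate, and Emp1 a tetraspan membrane protein whose mRNA is used as a readout of the pathway. LZTR1 is the substrate adaptor of a CUL3 ubiquitin ligase that marks RIT1 and other RAS-family GTPases for degradation, and M90I is a RIT1 variant that escapes it.

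Promoter stretches of 4 of the genes are shown: Etv5 and Dusp6 because most of the differences between libraries described below are theirs, and Dusp5 and Emp1 because their windows held a CArG box or an AP-1 motif. RefSeq promoter windows (GRCm38.p6), taken as the 250 bases before the start site, were found for 9 of the 10 genes, all but Dusp4, and numbered 11 in all, since Etv5 and Emp1 each have a pair. Each sequence below is the longest stretch of its window outside annotated exons of that gene, read 5' to 3' on the gene's strand, with AP-1 (TGANTCA) and CArG box letters in capitals.
Etv5, chr16:22439720-22439820, minus strand: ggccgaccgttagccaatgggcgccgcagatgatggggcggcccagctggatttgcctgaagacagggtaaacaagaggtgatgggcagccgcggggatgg
Dusp6, chr10:99262981-99263230, plus strand: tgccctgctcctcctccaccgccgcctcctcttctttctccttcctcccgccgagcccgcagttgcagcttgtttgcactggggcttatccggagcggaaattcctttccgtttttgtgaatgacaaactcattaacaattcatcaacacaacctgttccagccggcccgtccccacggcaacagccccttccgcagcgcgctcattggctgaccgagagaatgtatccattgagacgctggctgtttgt
Dusp5, chr19:53528895-53529108, plus strand: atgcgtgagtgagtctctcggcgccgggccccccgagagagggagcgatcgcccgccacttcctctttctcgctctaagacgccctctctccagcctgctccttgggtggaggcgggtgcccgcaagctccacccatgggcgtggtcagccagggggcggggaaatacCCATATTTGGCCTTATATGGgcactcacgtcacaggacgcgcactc
Emp1, chr6:135362708-135362903, plus strand, between annotated exons of the gene: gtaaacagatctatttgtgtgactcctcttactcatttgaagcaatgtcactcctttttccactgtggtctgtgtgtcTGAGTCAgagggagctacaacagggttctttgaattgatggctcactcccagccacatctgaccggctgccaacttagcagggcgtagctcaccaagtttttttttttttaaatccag

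Across the whole 250-base windows, on both strands, the AP-1 motif was in 1 of 11 windows of these genes (Emp1, with a further copy outside the stretch shown) and in 6.75% of all 32851 windows. The CArG box, bound by serum response factor, was also in 1 of 11 windows and in 1.47% of all windows, and the Dusp5 window held a pair of adjoining copies. The ETS motif CCGGAA was in 0 of 11 windows against 12.0% of all windows, and the full cyclic AMP response element TGACGTCA in 0 of 11 against 1.55%. Its core TGACG was in 2 of 11 windows, those of Dusp5 and Spred2, against 17.8% of all. These matches describe letters in the windows, and a motif that was not found says only that its letters are not in that window.

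In the GENCODE annotation of GRCm38 all 10 genes are protein coding. Etv5 spans chr16:22381309-22439719 on the minus strand, Dusp6 chr10:99263231-99267489 on the plus strand, Spred1 chr2:117121374-117182279 on the plus strand and Spred2 chr11:19924375-20024026 on the plus strand. Spry1 spans chr3:37639947-37644598 and Dusp4 chr8:34807297-34819894 on the plus strand, and Spry2 spans chr14:105891947-105896819 on the minus strand. Dusp5 spans chr19:53529109-53542431, Ier3 chr17:35821684-35822923 and Emp1 chr6:135362545-135383173, all on the plus strand. Dusp5 overlaps a noncoding gene on the other strand, AC137853.2, and Spry1 overlaps Gm42922. The labels do not say whether the counting used strand, so reads of these 2 overlaps may be shared.

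The deposited tables held 3014 barcodes of the Lztr1 knockout, 11573 of Rit1-M90I and 8476 of the control. Filters on depth, mitochondrial share and doublets kept 2338 cells of the Lztr1 knockout, 9367 of Rit1-M90I and 7273 of the control. Median unique molecular identifiers (UMIs) per kept cell were 9922.5 in the Lztr1 knockout, 6590 in Rit1-M90I and 6861 in the control. Levels are given as CPM, a gene's UMIs scaled to one common total of all UMIs in the same library and the same set of cells. Over all kept cells Lztr1 mRNA stood at 6.34 CPM in the Lztr1 knockout, 15.2 CPM in Rit1-M90I and 17.3 CPM in the control, lowest in the library labelled as its knockout. The labels do not name the exons deleted from Lztr1, and 3' reads may lie outside them. Rit1 mRNA stood at 11.7 CPM in the Lztr1 knockout, 13.6 CPM in Rit1-M90I and 8.62 CPM in the control. Pairs of libraries shared 5 to 19 barcodes, at most 0.365% of a library. A cluster of 788 shallow cells, with a median of 1690 UMIs, held 703 Rit1-M90I cells, 1 Lztr1 knockout cell and 84 control cells. Leaving that cluster out, a step chosen after seeing the data, changed none of the counts of these 10 genes past 1.5-fold, over all kept cells or by population.

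Cells were put into populations by scores over marker genes, with thresholds set after seeing the data, and 7 populations had at least 50 cells in every library. Basophils and mast cells led with Prss34 and Mcpt8, early lymphoid progenitors with Dntt and Myl10, plasmacytoid dendritic cells with Ly6d and Siglech, and erythroid progenitors with Car1. Monocyte-lineage cells led with F13a1 and neutrophil progenitors with S100a8, Wfdc21 and Elane. T cells (60 in the Lztr1 knockout, 343 in Rit1-M90I and 581 in the control) led with Ccl5 and Cd3d although CD3 had been gated out in the sort. The gates are cuts on a score: 57 of 2958 basophil and mast cells and 209 of 1458 lymphoid progenitors lay near the cut, and 250 of 2599 neutrophil progenitors.

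By the mean of the 3 libraries, Spry2, Dusp6 and Ier3 were highest in basophils and mast cells, as the plot of levels by population shows. Spry1, Emp1 and Spred1 were highest in lymphoid progenitors, Dusp5 in T cells, Etv5 in plasmacytoid dendritic cells, and Spred2 in erythroid progenitors with little difference from its neighbours. These orders hold among the populations with at least 50 cells in every library, and smaller ones were left out. Values of different genes are not compared, because 3' reads sample each mRNA differently, and every interval below covers counting error only.

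Spred1 and Spred2, the neurofibromin partners, were found in all 7 populations. The mean of the 3 libraries ran for Spred1 from 31.4 CPM in lymphoid progenitors to 15.4 CPM in neutrophil progenitors. For Spred2 it ran from 19.0 CPM in erythroid progenitors to 11.7 CPM in plasmacytoid dendritic cells. No neighbouring populations in either order were separated, in that the ranges of their libraries overlapped throughout.

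Among the Sprouty genes, Spry2 had 103 CPM in Lztr1 knockout basophils and mast cells, 73.2 CPM in Rit1-M90I and 94.5 CPM in the control. T cells came next, with Spry2 at 58.2 CPM in the Lztr1 knockout, 42.6 CPM in Rit1-M90I and 74.9 CPM in the control. Those 2 populations overlapped each other, while every T cell value lay above every lymphoid progenitor value, the third in order, which reached 18.4 CPM in the Lztr1 knockout. Spry1 was low in all 7 populations compared, at 5.10 CPM in Lztr1 knockout lymphoid progenitors, 2.2 CPM in Rit1-M90I and 4.72 CPM in the control. It had no UMI in basophils and mast cells of any library, where 3 UMIs would have been 2.4 CPM in the Lztr1 knockout, 0.61 CPM in Rit1-M90I and 0.777 CPM in the control.

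Of the phosphatase genes, Dusp6 and Dusp5 shared their leading populations, basophils and mast cells, T cells and lymphoid progenitors, in a different order. Dusp6, which encodes a cytoplasmic ERK phosphatase, had 72.0 CPM in Lztr1 knockout basophils and mast cells, 73.6 CPM in Rit1-M90I and 51.3 CPM in the control. In T cells Dusp6 stood at 53.4 CPM in the Lztr1 knockout, 42.6 CPM in Rit1-M90I and 45.6 CPM in the control, which overlapped the basophil values. Dusp5, which encodes a nuclear ERK phosphatase, had 24.3 CPM in Lztr1 knockout T cells, 36.1 CPM in Rit1-M90I and 43.0 CPM in the control. Its lowest population was the erythroid progenitors, with a mean of 0.557 CPM. Dusp4, a nuclear phosphatase gene, had 9 UMIs in all cells of the Lztr1 knockout, 7 in Rit1-M90I and 14 in the control, too few to order its populations.

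Of the output genes, Ier3 was highest in basophils and mast cells by a wide margin. It had 90.5 CPM in Lztr1 knockout basophils and mast cells, 115 CPM in Rit1-M90I and 101 CPM in the control, a mean 9.52 times that of the next population, and no library of the other 6 populations overlapped these. Emp1 had 27.0 CPM in Lztr1 knockout lymphoid progenitors, 27.7 CPM in Rit1-M90I and 24.0 CPM in the control. Its second population, the plasmacytoid dendritic cells, had a mean of 10.1 CPM against 26.2 CPM in lymphoid progenitors, and the libraries of the 2 did not overlap. Etv5 averaged 21.6 CPM in plasmacytoid dendritic cells and 14.2 CPM in lymphoid progenitors, whose libraries overlapped.

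**Figure D1:**
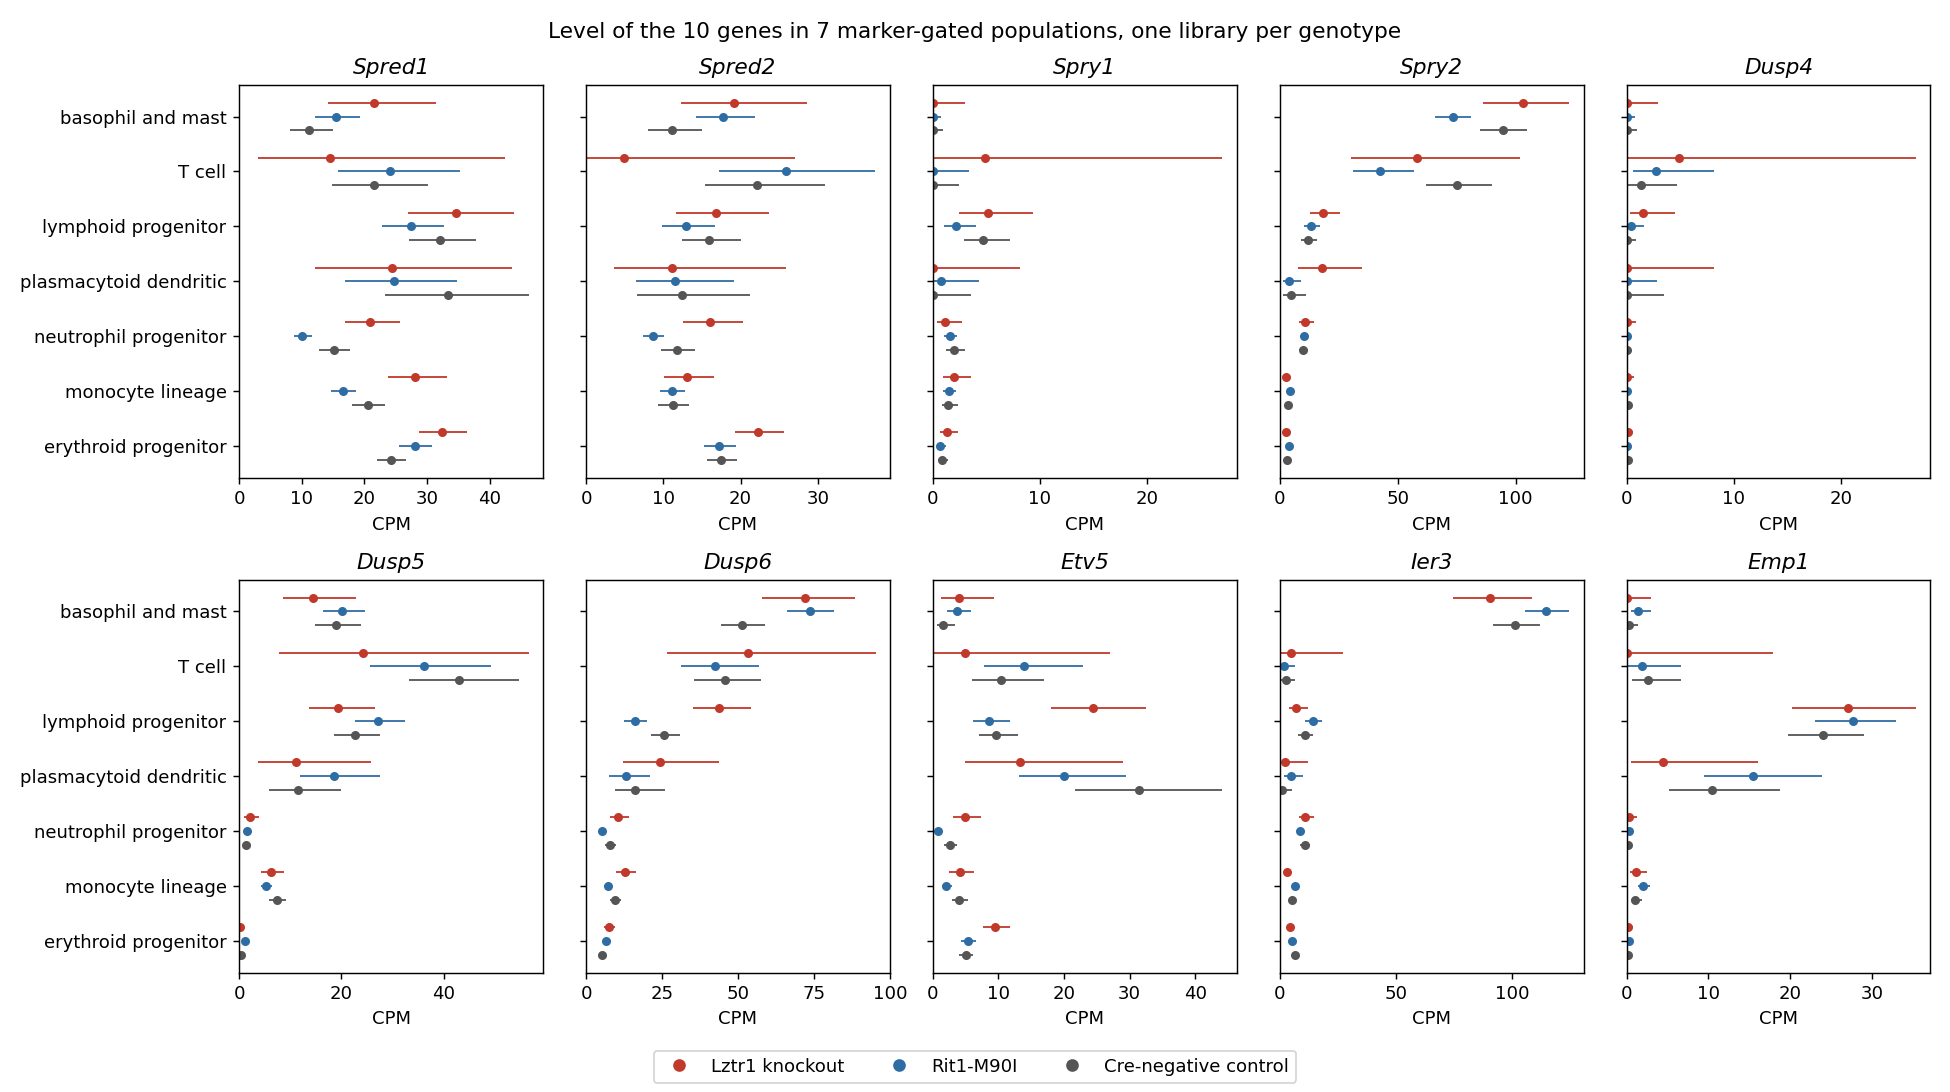
Level of each of the 10 genes in CPM (horizontal axes, each from 0 with its own range) in 7 marker-gated populations, with 1 point per library and bars for exact Poisson 95% intervals of counting error. Ier3 at 90.5 to 115 CPM in basophils and mast cells lies apart from all its other values, and Etv5 and Dusp6 in lymphoid progenitors are highest in the Lztr1 knockout.

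Over all kept cells, Etv5 rose in the Lztr1 knockout relative to the control, to 8.83 CPM against 5.27 CPM, a ratio of 1.68 (95% interval 1.41 to 1.98). It was 1 of 7 members measured that were at least 1.5-fold higher, beside 0.607% of the 9557 genes measured in that comparison, and no member was 1.5-fold lower, beside 1.01% of genes. A gene counted as measured when it averaged at least 5 CPM over the pair of libraries and had at least 50 UMIs in them together. Spry1, Dusp4 and Emp1 did not reach this over all cells. With 1 library per genotype no test of genotype was possible and the fold of 1.5 describes these libraries only. The Etv5 ratio was 1.47, short of the bound, when each cell counted equally, and 1.23 with 10 CPM added to both levels.

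Further members had intervals on 1 side of 1 without reaching 1.5-fold. Spred1 had 29.5 CPM in the Lztr1 knockout against 22.6 CPM in the control (ratio 1.31, 1.20 to 1.42), and Spred2 had 18.1 CPM in the Lztr1 knockout against 14.6 CPM in the control (ratio 1.24, 1.11 to 1.39). Dusp6 had 16.9 CPM in the Lztr1 knockout against 13.9 CPM in the control (ratio 1.21, 1.08 to 1.36). Ier3 pointed the other way, with 10.2 CPM in the Lztr1 knockout against 14.6 CPM in the control (ratio 0.70, 0.61 to 0.80), as did Dusp5 (ratio 0.83, 0.69 to 0.99). The median ratio of the 7 members was 1.21, against 1.01 for all genes measured.

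The share of each population differed between libraries, and weighting the populations as in the control library moved some of these ratios. Etv5 stood at 1.65, Spred1 at 1.28 and Spred2 at 1.22 under that weighting, close to the plain values, and Dusp6 at 1.35. Ier3 stood at 0.80 and Dusp5 at 0.92, both nearer to 1 than over all kept cells. The Spry2 ratio, 0.86 over all kept cells (0.76 to 0.98), became 1.06, so its direction over all cells turned with the mixture of populations. Basophils and mast cells, where Spry2, Dusp6 and Ier3 were highest, made up 12.7% of kept cells in the Lztr1 knockout, 16.2% in Rit1-M90I and 15.7% in the control.

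**Figure D2:**
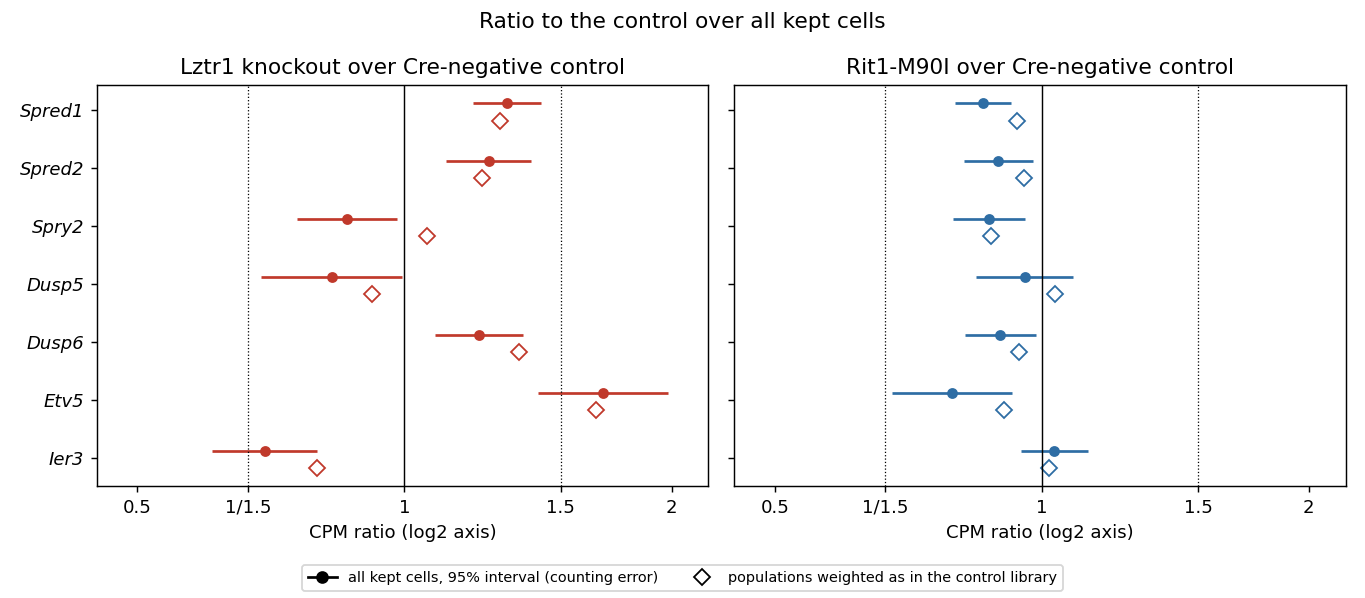
CPM ratio to the Cre-negative control (log2 axis) over all kept cells for Spred1, Spred2, Spry2, Dusp5, Dusp6, Etv5 and Ier3, in the Lztr1 knockout (left) and Rit1-M90I (right). Filled points carry 95% intervals of counting error, diamonds weight populations as in the control, and dotted lines mark 1.5-fold: Etv5 in the Lztr1 knockout, at 1.68, is past it.

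Within populations, Etv5 passed 1.5-fold in lymphoid and in erythroid progenitors. In lymphoid progenitors Etv5 had 24.5 CPM in the Lztr1 knockout against 9.66 CPM in the control, a ratio of 2.53 (1.64 to 3.92). In erythroid progenitors it had 9.54 CPM in the Lztr1 knockout against 5.01 CPM in the control, a ratio of 1.90 (1.40 to 2.59). In neutrophil progenitors Etv5 had 4.83 CPM in the Lztr1 knockout against 2.54 CPM in the control, on 21 UMIs in the Lztr1 knockout and 26 in the control (ratio 1.90, 1.02 to 3.51, below the measurement threshold). In the monocyte lineage Etv5 was close in both libraries, at 4.08 CPM in the Lztr1 knockout against 3.94 CPM in the control (ratio 1.03, 0.58 to 1.78, below the measurement threshold). The difference in erythroid progenitors made Etv5 the 1 of 5 members higher there, beside 0.626% of genes, with 0 lower beside 0.777%. In the monocyte lineage 0 of 4 members passed in either direction, beside 1.2% of genes higher and 0.819% lower. In plasmacytoid dendritic cells, where no member was measured, Etv5 was 13.3 CPM in the Lztr1 knockout against 31.4 CPM in the control, on 6 UMIs in the Lztr1 knockout and 33 in the control (ratio 0.42, 0.14 to 1.02).

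Dusp6 rose with Etv5 in lymphoid progenitors, with 43.9 CPM in the Lztr1 knockout against 25.8 CPM in the control (ratio 1.70, 1.27 to 2.27). Its ratio lay above 1 in the 6 populations where it was measured, including basophils and mast cells at 1.41 (1.08 to 1.81) and erythroid progenitors at 1.43 (1.04 to 1.97), and was lowest in T cells at 1.17 (0.56 to 2.22). The 3 of 8 members higher in lymphoid progenitors were Etv5, Dusp6 and Spry2, beside 2.69% of genes, and Ier3 was the 1 lower (ratio 0.66, 0.34 to 1.22), beside 2.82% of genes. The Spry2 ratio of 1.54 had an interval that included 1 (0.98 to 2.40) and was 1.30 with each cell weighted equally. With clusters in place of the gate, lymphoid progenitors were cluster 7 alone, with Dntt and Nusap1. It held 16.1% of the Lztr1 knockout and 16.6% of the control cells of the gate. Cluster 9, with Dntt and Myl10, held 35.7% of the Lztr1 knockout and 37.0% of the control cells but was left out. In cluster 7, 0 of 3 members measured passed in either direction, beside 3.46% of genes higher and 4.75% lower. Dusp6 stood at 1.39 there (0.86 to 2.22), and Etv5 at 1.93 (0.98 to 3.83), Spry2 at 1.38 and Ier3 at 0.97 were below the measurement threshold.

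In basophils and mast cells both SPRED genes passed 1.5-fold. Spred1 had 21.6 CPM in Lztr1 knockout basophils and mast cells and 11.1 CPM in the control (ratio 1.94, 1.15 to 3.21), and Spred2 had 19.2 CPM in the Lztr1 knockout against 11.1 CPM in the control (ratio 1.73, 1.002 to 2.91). They were the 2 of 6 members measured that were 1.5-fold higher there, beside 2.89% of genes, with 0 lower beside 4.27% of genes. With clusters in place of the gate, 1 of 5 members was higher, beside 3.31% of genes, with 0 lower beside 5.39%. That member was Spred2 (1.80, 0.96 to 3.30), while Spred1 (2.08, 1.06 to 3.96) was below the measurement threshold. Neutrophil progenitors had a Spred1 ratio of 1.39 (1.06 to 1.81), monocyte-lineage cells of 1.37 (1.11 to 1.70), erythroid progenitors of 1.33 (1.15 to 1.55) and lymphoid progenitors of 1.08 (0.80 to 1.45). In neutrophil progenitors 0 of 5 members passed 1.5-fold in either direction, beside 2.5% of genes higher and 1.18% lower. In T cells Dusp5 was 1.5-fold lower (0.56, 0.18 to 1.38), the 1 of 3 members lower beside 13.8% of genes, with 0 higher beside 6.85%, on 5 UMIs in the Lztr1 knockout and 66 in the control.

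Handling and stress genes such as Fos and Hspa1a, listed because tissue processing induces them, were low in the Lztr1 knockout over all kept cells, as Ier3 was, but not in step with Ier3 in every population. Over all kept cells 7 of 14 measured were 1.5-fold lower in the Lztr1 knockout than in the control, beside 1.01% of all genes, and 0 higher, beside 0.607%. Their median ratio was 0.70, and Fosb (0.34) and Fos (0.47) were lowest while Klf4 (1.17) and Hsph1 (1.13) were highest. In lymphoid progenitors 3 of 13 were lower, beside 2.82% of genes, with a median of 0.77. In neutrophil progenitors 5 of 11 were lower, beside 1.18% of genes, with a median of 0.77. Ier3 there had 11.04 CPM in the Lztr1 knockout against 10.8 CPM in the control (ratio 1.03, 0.71 to 1.45). In the stem-like cluster 16 described below 9 of 12 handling and stress genes were lower, beside 6.05% of genes, with a median of 0.50. The part of these genes in the Ier3 result was not tested.

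In Rit1-M90I over all kept cells, none of the 6 members measured passed 1.5-fold against the control, beside 0.732% of the 9558 genes higher and 0.659% lower. Spred1 had 19.5 CPM in Rit1-M90I and 22.6 CPM in the control (ratio 0.86, 0.80 to 0.92), and Spry2 had 12.0 CPM in Rit1-M90I and 13.7 CPM in the control (ratio 0.87, 0.80 to 0.96). Dusp6 had 12.5 CPM in Rit1-M90I and 13.9 CPM in the control (ratio 0.90, 0.82 to 0.99), and Spred2 had a ratio of 0.89 (0.82 to 0.98). Ier3 (1.03, 0.95 to 1.13) and Dusp5 (0.96, 0.84 to 1.09) had intervals that included 1. The median ratio of the 6 was 0.90, against 0.96 for all genes measured.

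Behind this near-flat total, Dusp6 lay on opposite sides of 1 in different populations. In lymphoid progenitors Dusp6 fell to 16.03 CPM in Rit1-M90I, against 25.8 CPM in the control (ratio 0.62, 0.46 to 0.84), the 1 of 8 members lower beside 1.57% of genes, with 0 higher beside 3.17%. Under a stricter gate the ratio was 0.70 and short of the bound. The stem-like cluster 16 made up 25.3% of the Rit1-M90I and 23.0% of the control cells of the main gate. Cluster 9 made up 35.6% of the Rit1-M90I and 37.0% of the control cells. As given below, Dusp6 in Rit1-M90I lay below the control in clusters 16, 14 and 7 and close to it in cluster 9. The part of this mixture in the ratio was not tested. In neutrophil progenitors Dusp6 fell to 5.14 CPM in Rit1-M90I, against 8.03 CPM in the control (ratio 0.64, 0.47 to 0.87). It was the 1 of 5 members lower there, beside 2.46% of genes, with 0 higher beside 0.652%. That call was lost under most alternatives, among them doublets kept (0.69), TMM scaling (0.67), a stricter gate (0.73) and clusters in place of the gate (0.84). Handling and stress genes were lower in Rit1-M90I too, 4 of 11 in neutrophil progenitors (median 0.91, beside 2.46% of all genes) and 4 of 14 in the monocyte lineage (median 0.82, beside 0.691%). Over all kept cells 3 of 14 were lower (median 0.84, beside 0.659%). The part of these genes in the Dusp6 values was not tested. In lymphoid progenitors 2 of 14 handling and stress genes were lower, beside 1.57% of all genes, and 1 higher, beside 3.17% (median 1.10). In basophils and mast cells Dusp6 was higher, at 73.6 CPM in Rit1-M90I and 51.3 CPM in the control (ratio 1.44, 1.20 to 1.72), short of 1.5-fold. The Dusp6 ratio was 0.75 (0.57 to 0.98) in the monocyte lineage, where 0 of 5 members passed beside 0.834% of genes higher and 0.691% lower. It was 1.25 (0.94 to 1.67) among erythroid progenitors, where 0 of 5 passed beside 1.01% higher and 0.172% lower. Whether the ratio differs between populations was not tested.

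Other genes of the set differed from the control in single populations of Rit1-M90I. Spred1 in neutrophil progenitors had 10.1 CPM in Rit1-M90I and 15.1 CPM in the control (ratio 0.67, 0.54 to 0.83), just inside the 1.5-fold bound, and Spred2 there had a ratio of 0.74 (0.58 to 0.94). In basophils and mast cells Spred2 rose to 17.7 CPM in Rit1-M90I, against 11.1 CPM in the control (ratio 1.59, 1.09 to 2.35), the 1 of 6 members higher beside 2.21% of genes, with 0 lower beside 1.5%. With every deposited barcode kept that ratio was 1.47. Spry2 fell in T cells to 42.6 CPM in Rit1-M90I, against 74.9 CPM in the control (ratio 0.57, 0.39 to 0.81), the 1 of 5 members lower beside 4.94% of genes, with 0 higher beside 2.34%, and was at 0.73 under a stricter cell filter. Etv5 in neutrophil progenitors was at 0.831 CPM in Rit1-M90I and 2.54 CPM in the control (ratio 0.33, 0.16 to 0.63), below the measurement threshold on 16 UMIs in Rit1-M90I and 26 in the control, and in plasmacytoid dendritic cells its ratio was 0.64 (0.37 to 1.10), the 1 of 2 members lower beside 3.57% of genes, with 0 higher beside 3.84%.

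**Figure D3:**
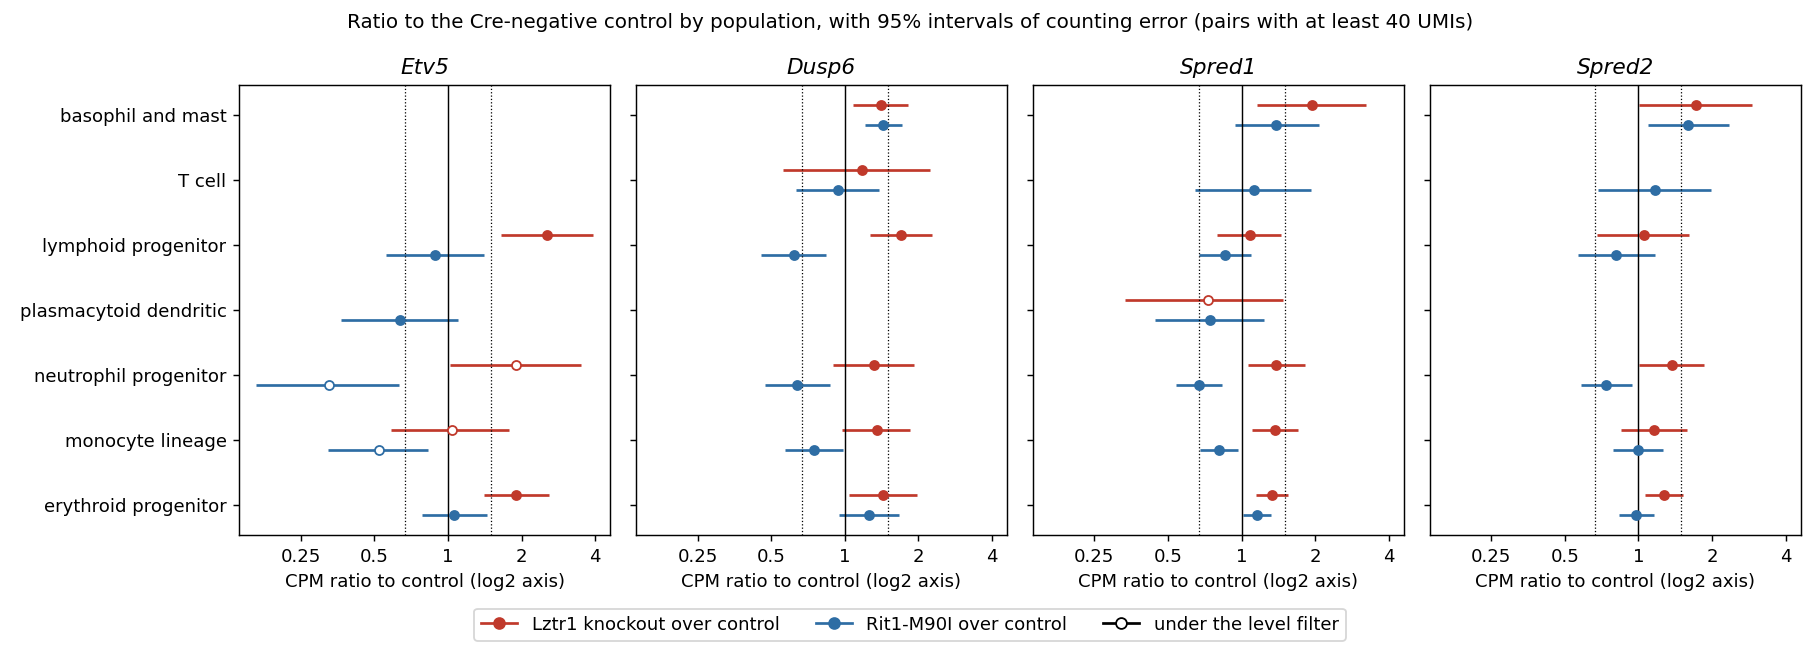
CPM ratio to the Cre-negative control (log2 axis) of Etv5, Dusp6, Spred1 and Spred2 in 7 populations, with 95% intervals of counting error, where UMIs sufficed. Open points are below the measurement threshold and dotted lines mark 1.5-fold. The Dusp6 ratio of Rit1-M90I is 0.62 in lymphoid progenitors and 1.44 in basophils and mast cells, while that of the Lztr1 knockout is above 1 in all 6 populations shown.

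Set directly against Rit1-M90I, which also carries Cre, the Lztr1 knockout had 2 of 7 members 1.5-fold higher over all kept cells, beside 1.55% of the 9545 genes measured, and 0 lower beside 1.39%. Etv5 had 8.83 CPM in the Lztr1 knockout against 4.17 CPM in Rit1-M90I (ratio 2.12, 1.79 to 2.50), and Spred1 had 29.5 CPM in the Lztr1 knockout against 19.5 CPM in Rit1-M90I (ratio 1.52, 1.39 to 1.65). Dusp6 was at 1.35 (1.21 to 1.51), Spred2 at 1.39 (1.25 to 1.55) and Ier3 at 0.67 (0.59 to 0.77), the last just inside the 1.5-fold bound. With populations weighted as in the control, the Spred1 ratio was 1.37, short of the bound, Etv5 was 1.81 and Ier3 was 0.78. TMM scaling put Spred1 at 1.44 and each cell weighted equally put it at 1.44 too. These ratios share their libraries with the comparisons against the control and add no independent evidence to them.

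By population, the Lztr1 knockout had 2 of 8 members higher than Rit1-M90I in lymphoid progenitors, beside 2.53% of genes, and 1 lower, beside 4.26%. Dusp6 had 43.9 CPM in the Lztr1 knockout against 16.03 CPM in Rit1-M90I (ratio 2.74, 1.98 to 3.79), and Etv5 had 24.5 CPM in the Lztr1 knockout against 8.56 CPM in Rit1-M90I (ratio 2.86, 1.83 to 4.48). Ier3 had 7.14 CPM in the Lztr1 knockout against 14.3 CPM in Rit1-M90I (ratio 0.50, 0.26 to 0.90). In neutrophil progenitors 3 of 5 members were higher, beside 4.96% of genes, with 0 lower beside 0.637%, namely Spred1 (2.08, 1.60 to 2.68), Spred2 (1.86, 1.38 to 2.47) and Dusp6 (2.06, 1.42 to 2.95). All genes measured there had a median ratio of 1.10, and relative to it Spred1 stood at 1.89, Spred2 at 1.69 and Dusp6 at 1.87. In the monocyte lineage Spred1 (1.69, 1.38 to 2.08) and Dusp6 (1.80, 1.32 to 2.46) were the 2 of 4 members higher, beside 1.63% of genes, with 0 lower beside 1.22%. In erythroid progenitors Etv5 (1.80, 1.31 to 2.45) was the 1 of 4 higher, beside 0.449%, with 0 lower beside 1.54%. No member passed among 6 in basophils and mast cells (2.99% of genes higher, 5.02% lower) or among 2 in T cells (6.93% higher, 9.77% lower).

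Dusp6 differed between libraries in some of the finer clusters, which were found without the 10 genes. The clusters regroup the same kept cells of the same libraries, so their ratios add no independent evidence to those by population. Only some clusters are given here, picked after their values were seen, and the neutrophil clusters 8, 22 and 26 are not among them. In cluster 16, which leads with Hlf, Adgrl4 and other stem cell genes (124 Lztr1 knockout, 398 Rit1-M90I and 486 control cells), Dusp6 had 32.1 CPM in the Lztr1 knockout, 9.60 CPM in Rit1-M90I and 21.9 CPM in the control. The Rit1-M90I value was a ratio of 0.44 (0.27 to 0.69) to the control, 1 of 7 members lower beside 2.22% of genes, and 2 were higher beside 2.28%, Emp1 (2.03, 1.20 to 3.49) and Spry2 (1.54). The Lztr1 knockout ratio of Dusp6 was 1.47 (0.97 to 2.19), and among 5 members measured Ier3 was lower (0.61, 0.37 to 0.97) beside 6.05% of genes, with 0 higher beside 3.66%. Cluster 6, with Irf8 and cell cycle genes, had Dusp6 at 19.7 CPM in the Lztr1 knockout, 5.74 CPM in Rit1-M90I and 13.1 CPM in the control, a Rit1-M90I ratio of 0.44 (0.26 to 0.73) beside 2.21% of genes lower. The ratio of Rit1-M90I was likewise 0.44 (0.24 to 0.78) in cluster 14, beside 3.33% of genes, and 0.47 (0.24 to 0.87) in cluster 7, beside 3.22%. In cluster 9, with Dntt and Myl10, it was 46.8 CPM in the Lztr1 knockout, 26.8 CPM in Rit1-M90I and 27.4 CPM in the control. There the Lztr1 knockout ratio was 1.71 (1.03 to 2.80), beside 3.88% of genes higher, and the Rit1-M90I ratio 0.98 (0.62 to 1.55).

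The basophil clusters ran the other way for Rit1-M90I. Dusp6 in cluster 13, with Ccl3 and Cxcr2, had 127 CPM in the Lztr1 knockout, 113 CPM in Rit1-M90I and 82.5 CPM in the control, a ratio of 1.54 (1.09 to 2.16) for the Lztr1 knockout, beside 4.01% of genes higher, and of 1.37 (1.07 to 1.77) for Rit1-M90I. Dusp6 in cluster 11, with Prss34 and Mcpt8, had 41.0 CPM in the Lztr1 knockout, 56.1 CPM in Rit1-M90I and 39.1 CPM in the control, a Rit1-M90I ratio of 1.43 (1.04 to 1.99). Cluster 13 made up 56.4% of Lztr1 knockout, 53.6% of Rit1-M90I and 52.6% of control basophils and mast cells, while cluster 11 made up 26.0% of Lztr1 knockout, 32.9% of Rit1-M90I and 32.3% of control cells of that gate. Cluster 28 made up 8.45% of Lztr1 knockout, 4.68% of Rit1-M90I and 6.56% of control cells, and the part of this mixture in the Dusp6 ratios of the gate was not tested. Cluster 2, with Apoe and Trib2, had a Rit1-M90I ratio of Dusp6 of 1.52 (1.08 to 2.14), beside 3.02% of genes higher. In the monocyte cluster 12 Dusp6 had a Lztr1 knockout ratio of 1.72 (1.07 to 2.75), beside 2.78% higher, and in the erythroid cluster 0 Etv5 had one of 2.04 (1.39 to 2.98), beside 0.719% higher.

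**Figure D4:**
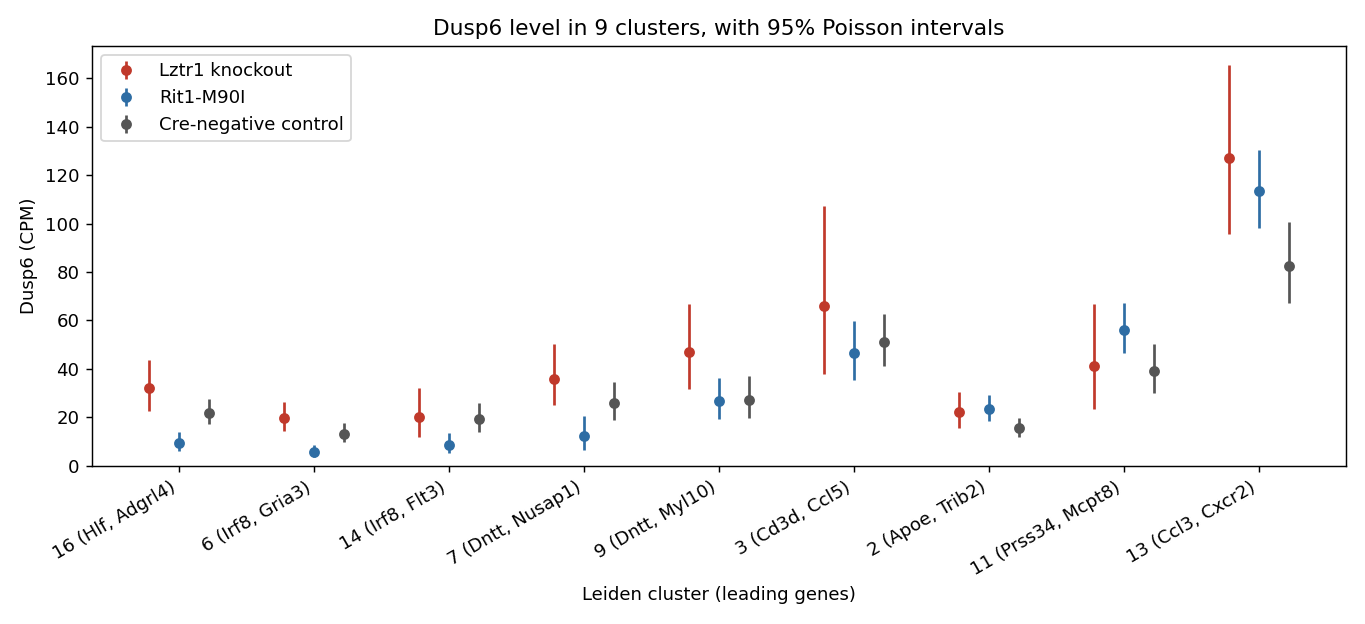
Dusp6 level in CPM in 9 clusters named by leading genes, with 1 point per library and exact Poisson 95% intervals. Rit1-M90I lies below the control in clusters 16, 6, 14 and 7 (9.60 against 21.9 CPM in cluster 16) and above it in clusters 2, 11 and 13.

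Cell by cell, after every cell was thinned to 3000 UMIs, the share of cells with a UMI of any of the 10 genes was 30.9% in the Lztr1 knockout (exact binomial 95% interval 28.9 to 33.0), 24.8% in Rit1-M90I (23.8 to 25.8) and 26.2% in the control (25 to 27.3). Shallower cells were left out: 295 of the Lztr1 knockout, 2355 of Rit1-M90I and 1537 of the control. Without thinning the shares were 64.4% in the Lztr1 knockout, 47.0% in Rit1-M90I and 51.1% in the control. In lymphoid progenitors thinned cells with a Dusp6 UMI were 14% in the Lztr1 knockout (9.51 to 19.6), 3.29% in Rit1-M90I (1.99 to 5.10) and 9.02% in the control (6.73 to 11.8), and unthinned 29.5% in the Lztr1 knockout, 9.31% in Rit1-M90I and 16.6% in the control. Thinned to 2000 UMIs they were 9.17% in the Lztr1 knockout, 3.38% in Rit1-M90I and 4.804% in the control, with overlapping intervals for Rit1-M90I and the control. Thinned cells with an Etv5 UMI there were 7% in the Lztr1 knockout (3.88 to 11.5), 1.56% in Rit1-M90I (0.716 to 2.94) and 2.63% in the control (1.45 to 4.38), and unthinned 17.4% in the Lztr1 knockout, 4.89% in Rit1-M90I and 7.08% in the control.

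Free RNA in droplets can give UMIs in cells that do not express a gene, and its size was not measured. Shares in populations where a gene was low are given for scale. They also include any true low expression and any cells put in the wrong gate. Thinned T cells had an Ier3 UMI in 1 of 38 Lztr1 knockout, 0 of 194 Rit1-M90I and 0 of 161 control cells, with exact binomial upper bounds of 1.88% in Rit1-M90I and 2.27% in the control. Thinned basophils and mast cells had an Ier3 UMI in 22.5% of Lztr1 knockout, 22.4% of Rit1-M90I and 21.6% of control cells. In that gate 160 of 296 Lztr1 knockout, 621 of 1518 Rit1-M90I and 487 of 1144 control cells were deep enough for thinning. Its thinned shares, here and for Spry2 below, therefore describe its deeper cells only. Erythroid progenitors had a Spry2 UMI in 1.68% of Lztr1 knockout, 1.93% of Rit1-M90I and 1.503% of control cells, while basophils and mast cells had one in 26.9% of Lztr1 knockout, 16.9% of Rit1-M90I and 22.2% of control cells. Median depth before thinning was 2571 to 3215 UMIs in the basophils and mast cells of the 3 libraries and 13739 to 18742 UMIs in their erythroid progenitors. For Etv5 in erythroid progenitors, thinned shares of 2.52% in the Lztr1 knockout, 1.64% in Rit1-M90I and 2.03% in the control had overlapping intervals. Thinning set most UMIs of these deep cells aside, so the shares cannot decide on the 1.90-fold difference of summed counts.

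Across the 21 values of 7 populations in 3 libraries, which share libraries and depths, some genes varied together. Among members, Pearson's r of log2(CPM + 5) was 0.90 for Spry2 and Dusp6, 0.80 for Dusp5 and Dusp6, and 0.75 for Spred1 and Etv5. The genes most like each member by that measure were Hgf (0.98) and Rnase12 for Ier3, Cuedc1 (0.96) and Rcn1 for Spry2, Il18rap and Ets1 (both 0.94) for Dusp6, and Gramd1a and Irf2 (both 0.96) for Dusp5. Tcf20 (0.88) and Pogz (0.87) were most like Etv5, Prrc2a (0.91) and Tbl1x (0.88) most like Spred1, and Sh3glb2 (0.87) and Sacm1l (0.79) most like Spred2. Dntt (0.96), itself a marker of the lymphoid gate, and Myl10 (0.94) were most like Emp1.

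Other genes of the pathway were read from lists drawn up by family and function. Of 17 further members of the same families 6 were measured over all kept cells in the Lztr1 knockout and the control. Of these 0 were higher, beside 0.607% of all genes, and 1 lower, Dusp1 (0.61), beside 1.01%, with a median ratio of 0.90. Dusp7 (1.15) and Emp3 (0.91) were highest, and Ier2 (0.88) was the next lowest. Of 17 further ERK output genes 6 were measured, with 1 higher beside 0.607% of genes, 0 lower beside 1.01%, and a median of 1.16. The higher gene was Egr1, at 7.68 CPM in the Lztr1 knockout against 4.55 CPM in the control (ratio 1.69). Ccnd1, which encodes cyclin D1, had 52.1 CPM in the Lztr1 knockout against 34.9 CPM in the control (ratio 1.49), just short of the bound, and Myc (1.03) and Bcl2l11 (0.99) were lowest. In Rit1-M90I against the control 0 of 6 in either list passed 1.5-fold, beside 0.732% of genes higher and 0.659% lower. The medians were 0.91 for the family list and 0.89 for the output list.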

How the data were processed

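The data are 3 droplet single-cell RNA libraries, 1 per genotype. The deposited files hold raw UMI counts per gene and barcode. Per the submitters' processing notes the authors used Cell Ranger 6.1.1, Seurat 4.1.0 and mm10. Cells needed 1000 UMIs, 500 genes and at most 10% mitochondrial UMIs, and doublets called by Scrublet (3.32% to 4.58% of a library) were removed, leaving 27617480 UMIs in the Lztr1 knockout, 79770991 in Rit1-M90I and 62419416 in the control. Cells were gated by a score over 143 markers of 17 classes (score 0.2, margin 0.05). Scanpy 1.11.5 clustered them on 2000 variable genes without the 10 members (30 components, 15 neighbours, Leiden resolution 1). UMIs were summed per population and library. With 1 library per group there was no test: CPM carries exact Poisson and ratios carry exact conditional 95% intervals, which cover counting error only. All genes averaging 5 CPM with 50 UMIs together were measured, and 1.5-fold was the call. Scripts ran in Python 3.11.15 with scipy 1.17.1 and were tested on simulated data, and edgeR 4.0.16 gave TMM factors only. The text names the 10 members, Lztr1 and Rit1, the 2 highest and 2 lowest genes of each further list by the ratio of Lztr1 knockout to control, and the 2 genes most like a member; others were chosen after their values were seen. Members and lists were chosen with earlier results of these data known. Alternatives changed the cell filter, doublets, gate, clusters, scaling, weighting, low-gene filter, pseudocount and thinning.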

Additional observations from a re-analysis of the deposited data

Results flagged for a closer look

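The ratios of Rit1-M90I to the control lay on opposite sides of 1 in different populations for 3 of the genes, with intervals of counting error that did not include 1. Whether the ratios differ between populations was not tested, since each genotype has 1 library. For Dusp6 the ratio was 1.44 in basophils and mast cells, and it was 0.62 in lymphoid progenitors, 0.64 in neutrophil progenitors and 0.75 in the monocyte lineage. For Spred1 it was 1.16 in erythroid progenitors, and it was 0.67 in neutrophil progenitors and 0.81 in the monocyte lineage. For Spred2 it was 1.59 in basophils and mast cells and 0.74 in neutrophil progenitors. The shallow cluster that is mostly Rit1-M90I cells made up 7.76% of the Rit1-M90I and 0.970% of the control neutrophil progenitors, and without it the Dusp6 ratio there was 0.65. Cluster 16, where Dusp6 had 9.60 CPM in Rit1-M90I against 21.9 CPM in the control, made up 1.97% of the Rit1-M90I and 5.94% of the control neutrophil progenitors, and cluster 8 made up 21.6% of the Rit1-M90I and 15.8% of the control ones. With clusters in place of the gate the Dusp6 ratio in neutrophil progenitors was 0.84, and the part of the mixture was not tested.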

How the results depend on the processing

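No paired analysis was possible because each genotype has 1 library. Over all kept cells, the count of members higher in the Lztr1 knockout than in the control was 1, and 0 with each cell weighted equally, with 10 CPM added or with a mean of at least 20 CPM required. The count lower in Rit1-M90I than in the control was 0, and 1 (Dusp4) without a filter on low genes. The count higher in the Lztr1 knockout than in Rit1-M90I was 2. It was 1 with a stricter cell filter, TMM scaling, totals without hemoglobin, immunoglobulin, mitochondrial and ribosomal protein genes, equal weights, a mean of 20 CPM or control shares, and 0 with 10 CPM added. The count lower was 0, and 1 (Ier3) with every barcode, with doublets, with TMM scaling, with those totals or with equal weights. Over pairs of member and population, the Lztr1 knockout against the control had 6 higher (3 by Leiden clusters, 2 with 10 CPM added) and 2 lower (1 with a stricter cell filter, a stricter gate or 10 CPM added, 0 by clusters). Rit1-M90I against the control had 1 higher (0 with every barcode or 10 CPM added, 2 with equal weights or by clusters) and 4 lower (2 with a stricter cell filter or by clusters, 1 with 10 CPM added). Between both Cre-positive libraries the Lztr1 knockout had 8 higher (3 with 10 CPM added) and 1 lower (2 with every barcode, a stricter cell filter, doublets or a stricter gate, 0 with 10 CPM added). These totals add up the populations, and the shares of all genes under the main settings are given above for each population. By clusters 1 member, not 3, was highest in lymphoid progenitors, which were then cluster 7 alone. The share of cells with a UMI of any member, thinned to 2000 UMIs, 5000 UMIs and not at all, came to 23.0%, 40.6% and 64.4% (Lztr1 knockout), 20.3%, 29.5% and 47.0% (Rit1-M90I), and 21.6%, 33.5% and 51.1% (control). Of 544 alternative values of 56 single ratios, 24 moved beyond the counting interval. Reversal was counted only for ratios past 1.5-fold, and 0 values reversed. Among the ratios short of 1.5-fold, that of Spry2 in the Lztr1 knockout over the control was 0.86 over all kept cells and 1.06 at control shares. The cause of these changes was not tested.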

Other observations

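Relatives of the 10 genes that were too low to be measured, named here after their values were seen, had few UMIs. Spry4 had 1.99 CPM (55 UMIs) in the Lztr1 knockout, 1.22 CPM (97 UMIs) in Rit1-M90I and 1.15 CPM (72 UMIs) in the control, a ratio of 1.73 for the Lztr1 knockout over the control (1.19 to 2.49). Etv4 had 9 UMIs in the Lztr1 knockout, 2 in Rit1-M90I and 2 in the control. In the few stromal and endothelial cells that passed the sort, 15 in the Lztr1 knockout, 30 in Rit1-M90I and 8 in the control, Emp1 had 173 CPM (10 UMIs) in the Lztr1 knockout, 274 CPM (21 UMIs) in Rit1-M90I and 442 CPM (9 UMIs) in the control. Spry1 had 104 CPM (6 UMIs) there in the Lztr1 knockout, 327 CPM (25 UMIs) in Rit1-M90I and 246 CPM (5 UMIs) in the control.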
